A study of Homo sapiens with 8 samples.

Results

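The line by starvation interaction set the response of ρ0 MDA-MB-231 cells to arginine depletion against the response of their parental line. It used all 8 of the 8 libraries of the series and was chosen by the labels of the samples, not by any measured value. For each gene, the log2 fold change of starved over control in ρ0 cells was taken, and the same fold change in parental cells was subtracted from it. This value is called the difference: above 0, the change of a transcript with starvation was more positive in ρ0 cells than in parental cells, and below 0 more negative. MDA-MB-231, a cell line from a human breast carcinoma, makes little argininosuccinate synthetase and therefore needs arginine from its medium. The transcript of this enzyme, ASS1, was higher in the ρ0 libraries than in the parental ones, as given below. ρ0 cells have lost their mitochondrial DNA after long culture in ethidium bromide, and the ρ0 line here was a single clone, number 27.

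Each line was sequenced as 2 control libraries and 2 libraries from cells that, per the labels, received arginine deiminase (ADI), an enzyme that degrades arginine, at 0.3 µg/mL for 48 h. Parental and ρ0 cells share the same medium in the labels, DMEM with serum and antibiotics. The methods of the study instead describe starvation by medium without arginine, and describe ρ0 cells kept with pyruvate, uridine and ethidium bromide. Loss of mitochondrial DNA, the choice of 1 clone, these supplements and the higher ASS1 of the ρ0 line cannot be told apart in any value given here. No label says that the 2 libraries of a group came from separate cultures, so each p-value measures only the spread between these libraries.

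Arginine is taken up by cells or made from citrulline and aspartate, and cells deprived of it accumulate uncharged tRNA, which activates the kinase GCN2 and raises translation of the transcription factor ATF4. ATF4 induces amino acid transporters, tRNA synthetases and asparagine synthetase, and with its partner CHOP a set of stress genes. Mitochondrial DNA encodes core subunits of the respiratory chain, so ρ0 cells cannot respire, live on glycolysis and need uridine and pyruvate, because pyrimidine and aspartate synthesis depend on electron transport.

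The libraries held 25259503 to 31022155 counts, and 15262 of the 23393 genes in the table passed the expression filter. The pairs of libraries did not vary alike: the biological coefficient of variation was 5.18% between the parental controls, 2.25% between the starved parental libraries and 1.84% between the starved ρ0 libraries, but 25.1% between the ρ0 controls. Both ρ0 controls stand on one side of every difference, so results are also given without each of them. The tests used 1 spread per gene for all groups, so the gap between the ρ0 controls also enters the tests of the parental response. A parental change that did not pass may therefore be small beside that gap rather than absent. None of the 13 protein-coding genes of the mitochondrial genome was in the table, and the ρ0 state was therefore not checked here. Of the markers of this line, VIM, CD44, AXL, CAV1 and MSN stood at 101 CPM (the counts of a gene relative to the scaled library total) or more in every library, and the hormone receptor genes ESR1 and PGR at or below 0.180 CPM. The epithelial markers CDH1 and EPCAM were at or below 0.521 CPM in parental libraries but at 4.31 to 23.7 CPM in the ρ0 libraries. ASS1 was at or below 0.300 CPM in parental libraries but at 6.35 to 23.1 CPM in the ρ0 libraries. The part of these gaps in the results was not tested. GATA3 and KRT19, also taken as low or absent in this line, stood at 4.38 to 5.57 and 16.0 to 46.6 CPM in parental and 10.4 to 18.6 and 51.7 to 146 in ρ0 libraries. Markers of other cell types were low but not absent. The leukocyte markers PTPRC, CD3E and LYZ summed to 0.158 to 0.521 CPM in parental libraries, 2.15 and 0.868 in the ρ0 controls and 0.497 to 0.608 in starved ρ0 cells, with CD3E at 0 throughout. The fibroblast markers COL1A1, COL1A2, PDGFRB and DCN summed to 18.1 and 20.04 CPM in parental controls, 11.01 and 11.5 in starved parental cells, 30.9 and 12.2 in the ρ0 controls and 7.91 and 9.86 in starved ρ0 cells. The endothelial markers PECAM1 and CDH5 summed to 2.82 and 3.16, 0.119 and 0.106, 3.19 and 1.45, and 0.507 and 0.580 CPM in the same order. All 3 sums were higher in ρ0 control replicate 1 than in replicate 2, and their part in the results was not tested.

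At an adjusted p-value under 0.05, the response differed between the lines for 6167 of 15262 genes (40.4%). The difference was above 0 for 3295 genes (21.6%) and below 0 for 2872 (18.8%), and its median over all tested genes was 0.02. Starvation itself changed 10060 genes (65.9%) in parental cells and 6308 (41.3%) in ρ0 cells by the same fit. In parental cells 4637 genes rose (30.4%) and 5423 fell (35.5%), and in ρ0 cells 2937 rose (19.2%) and 3371 fell (22.1%). Most of the genes with a different response moved less in ρ0 cells. Of all tested genes, 2075 (13.6%) rose in parental cells and rose less, or did not pass the test, in ρ0 cells, and 2512 (16.5%) fell in parental cells and fell less, or did not pass, in ρ0 cells. A further 416 (2.73%) rose more in ρ0 cells and 494 (3.24%) fell more in ρ0 cells. Opposite responses, past the test in both lines, were measured for 252 genes (1.65%) that rose in parental and fell in ρ0 cells and for 303 (1.99%) that fell in parental and rose in ρ0 cells. The remaining 115 genes (0.754%) had a different response but no call in either line that placed them in a class. RNA was taken from whole cultures, where fewer cells of a kind and less RNA per cell cannot be told apart.

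These counts moved most when a ρ0 control was left out. Without ρ0 control replicate 1, 10277 genes passed the interaction test and 2349 of them were opposite responders, and without ρ0 control replicate 2, 9269 and 1292. Without any one of the other 6 libraries, 3513 to 3952 genes passed, 195 to 330 of them opposite. In these fits, a group left with 1 library is assumed to vary like the others. Without a ρ0 control, the widest pair is gone and the spread comes from the closer pairs. More calls in those fits, here and in the lists below, are therefore no support for a difference.

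**Figure D1:**
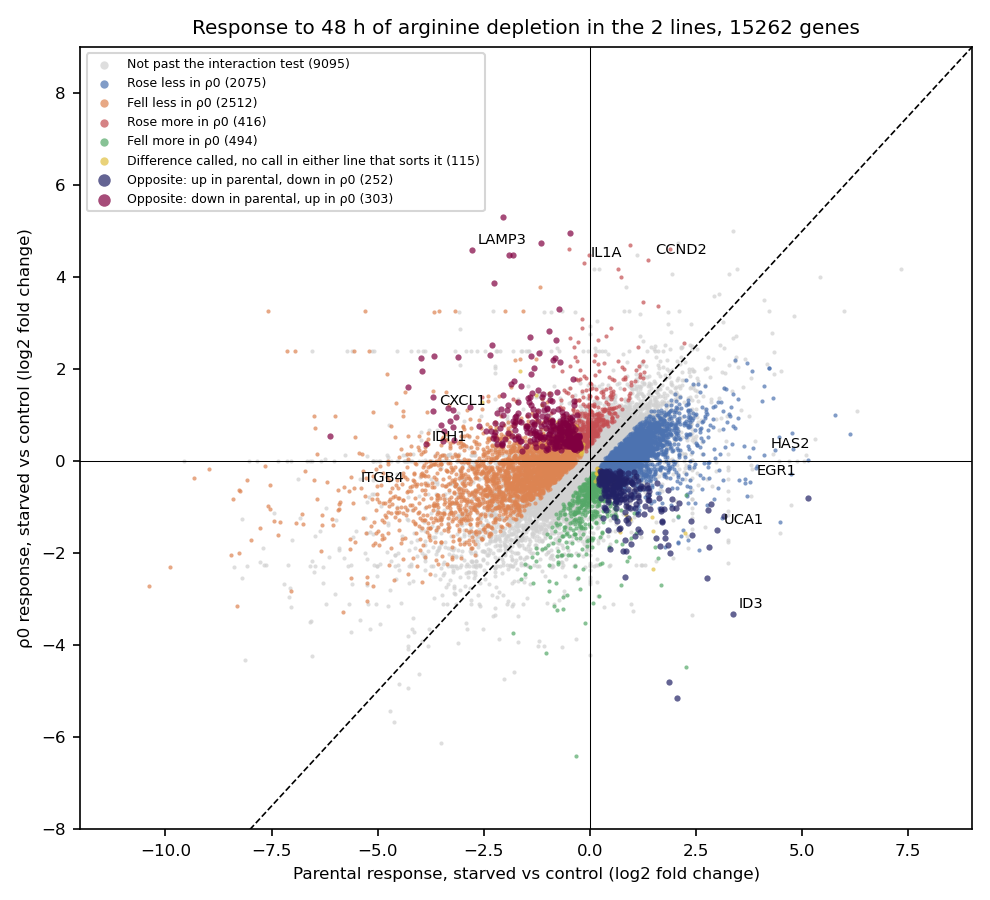
Response of each tested gene to 48 h of arginine depletion in parental cells (x axis) and ρ0 cells (y axis), both as log2 fold change of starved over control, 1 point per gene, coloured by response class, with the dashed line at equal responses. The largest classes are the 2075 genes that rose less and the 2512 that fell less in ρ0 cells, and horizontal rows of points are genes with few or no counts in a group.

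The genes with the most extreme differences were taken by a fixed rule, as were the genes with opposite responses and up to 2 genes per direction in each of 46 lists of functions. Of the 177 genes so named with a different response, 115 kept the call under every one of the 17 alternative fits in which they were tested, 8 of which leave out 1 library, with a difference that moved by less than 1.5 times. The genes below are among these 115 unless a library is named, the difference was not called, or they were chosen or looked up after values were seen. Where a library is named, some calls were also lost by another test, those of XAF1, ASS1, RRP9 and OAS1 in limma-voom and those of NFATC4 and RELN in limma-voom with a weight per group. Values per library are CPM after scaling by TMM (trimmed mean of M values), given for replicate 1 and then replicate 2, and responses and differences are log2 values, the latter with their standard errors. A gene is said to rise or fall less in ρ0 cells also where its change there did not pass the test. Of each list, the numbers of members above and below 0 are also given from fits that left out ρ0 control replicate 1, ρ0 control replicate 2 or one of the other 6 libraries, always in this order. The counts of each list are to be read against all tested genes, of which 21.6% were above 0 and 18.8% below.

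LAMP3, a lysosomal membrane protein induced by stress and interferon, had the largest opposite response among genes with a mean of 10 CPM or more. LAMP3 stood at 9.23 and 10.7 CPM in the parental controls, 1.39 and 1.49 in starved parental cells, 1.35 and 1.64 in the ρ0 controls and 37.2 and 34.7 in starved ρ0 cells. It fell by 2.78 in parental cells and rose by 4.58 in ρ0 cells, a difference of 7.36 ± 0.23 (adjusted p = 2.1e-05), and in neither line did control and starved libraries overlap. ID3, an inhibitor of basic helix-loop-helix transcription factors, went the other way. Parental libraries held 5.82 and 5.63 CPM of ID3 in control and 60.5 and 57.5 in starved cells, and ρ0 libraries 9.51 and 29.2 in control and 2.10 and 1.74 in starved cells. Its response was 3.37 in parental and −3.33 in ρ0 cells, and the difference was −6.69 ± 0.69 (adjusted p = 0.00068), although the ρ0 controls lay well apart.

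A further 5 genes with large differences above 0 had few or no counts in 1 group, so that their fitted values depend on the prior count. The interferon-responsive genes APOL3 and XAF1 had 73 and 62, and 21 and 29, counts in the parental controls and 0 in both starved parental libraries. Against a floor of 3 counts per library, their mean CPM was at least 19.3-fold and 7.27-fold lower in starved parental cells. In ρ0 cells, APOL3 stood at 1111 and 540 counts in the controls and 751 and 587 after starvation, a log2 ratio of mean CPM of −0.17. With starved parental cells held at the floor, its difference by mean CPM was 4.10, or 3.64 and 4.79 against ρ0 control replicate 1 or 2 alone. That of XAF1 was 2.34, or 1.84 and 3.11, and its call was lost without any one of 6 libraries, namely both parental controls, both starved parental libraries and both starved ρ0 libraries (adjusted p = 0.068 to 0.104). The cystatins CST1 and CST4, secreted inhibitors of cysteine proteases whose close sequence makes the split of reads between them uncertain, fell from 1833 and 1649 counts to 2 and 0, and from 902 and 825 to 1 and 3. The ratio of control to starved in parental cells was 1498 for CST1 (95% interval by counting error, 414 to 12370) and 371 for CST4 (145 to 1365). In ρ0 cells they fell by 2.71 and 2.04. NFATC4 was called an opposite responder on 4 and 1 counts in starved ρ0 cells and 0 in the ρ0 controls, which gives no fold, and its call was lost without starved ρ0 replicate 1 (adjusted p = 0.0979).

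Below 0, among genes past the test with a mean of 10 CPM or more and the same sign for every choice of 1 library per group, the largest differences besides ID3 belonged to UCA1, EGR1, HAS2, RELN and SLAMF7. The long non-coding RNA UCA1 rose from 0.0600 and 0.139 CPM to 0.752 and 0.851 in parental cells and fell from 85.9 and 109 to 33.8 and 35.4 in ρ0 cells, a difference of −4.50 ± 0.43 (adjusted p = 0.00053). The parental controls held only 2 and 4 counts of UCA1, so the size of its parental rise is uncertain. In parental cells HAS2 went from 3.57 and 3.02 CPM in the controls to 56.4 and 57.9 with starvation, and in ρ0 cells from 7.70 and 4.34 to 6.83 and 6.38. HAS2, a hyaluronan synthase, therefore rose in parental libraries without overlap, while the ρ0 libraries overlapped, with a difference of −3.97 ± 0.35 (adjusted p = 0.00041). SLAMF7, a cell surface receptor best known from immune cells, rose by 2.78 in parental and fell by 1.07 in ρ0 cells, with a difference of −3.85 ± 0.42. RELN, a secreted matrix glycoprotein, was below 1 CPM in all ρ0 libraries, and its difference of −3.86 ± 1.02 was lost without any one of 6 libraries, namely the 4 parental libraries, ρ0 control replicate 2 and starved ρ0 replicate 1 (difference −3.99 to −1.69, adjusted p = 0.0524 to 0.316). The other opposite responders named by the rule were the cyclin CCNE2, the adhesion receptor ADGRV1 and C4orf19, all higher in starved parental and lower in starved ρ0 cells, with differences of −3.02, −3.67 and −2.72. In the other direction, IL1B and CXCL2 are described with their functions.

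**Figure D2:**
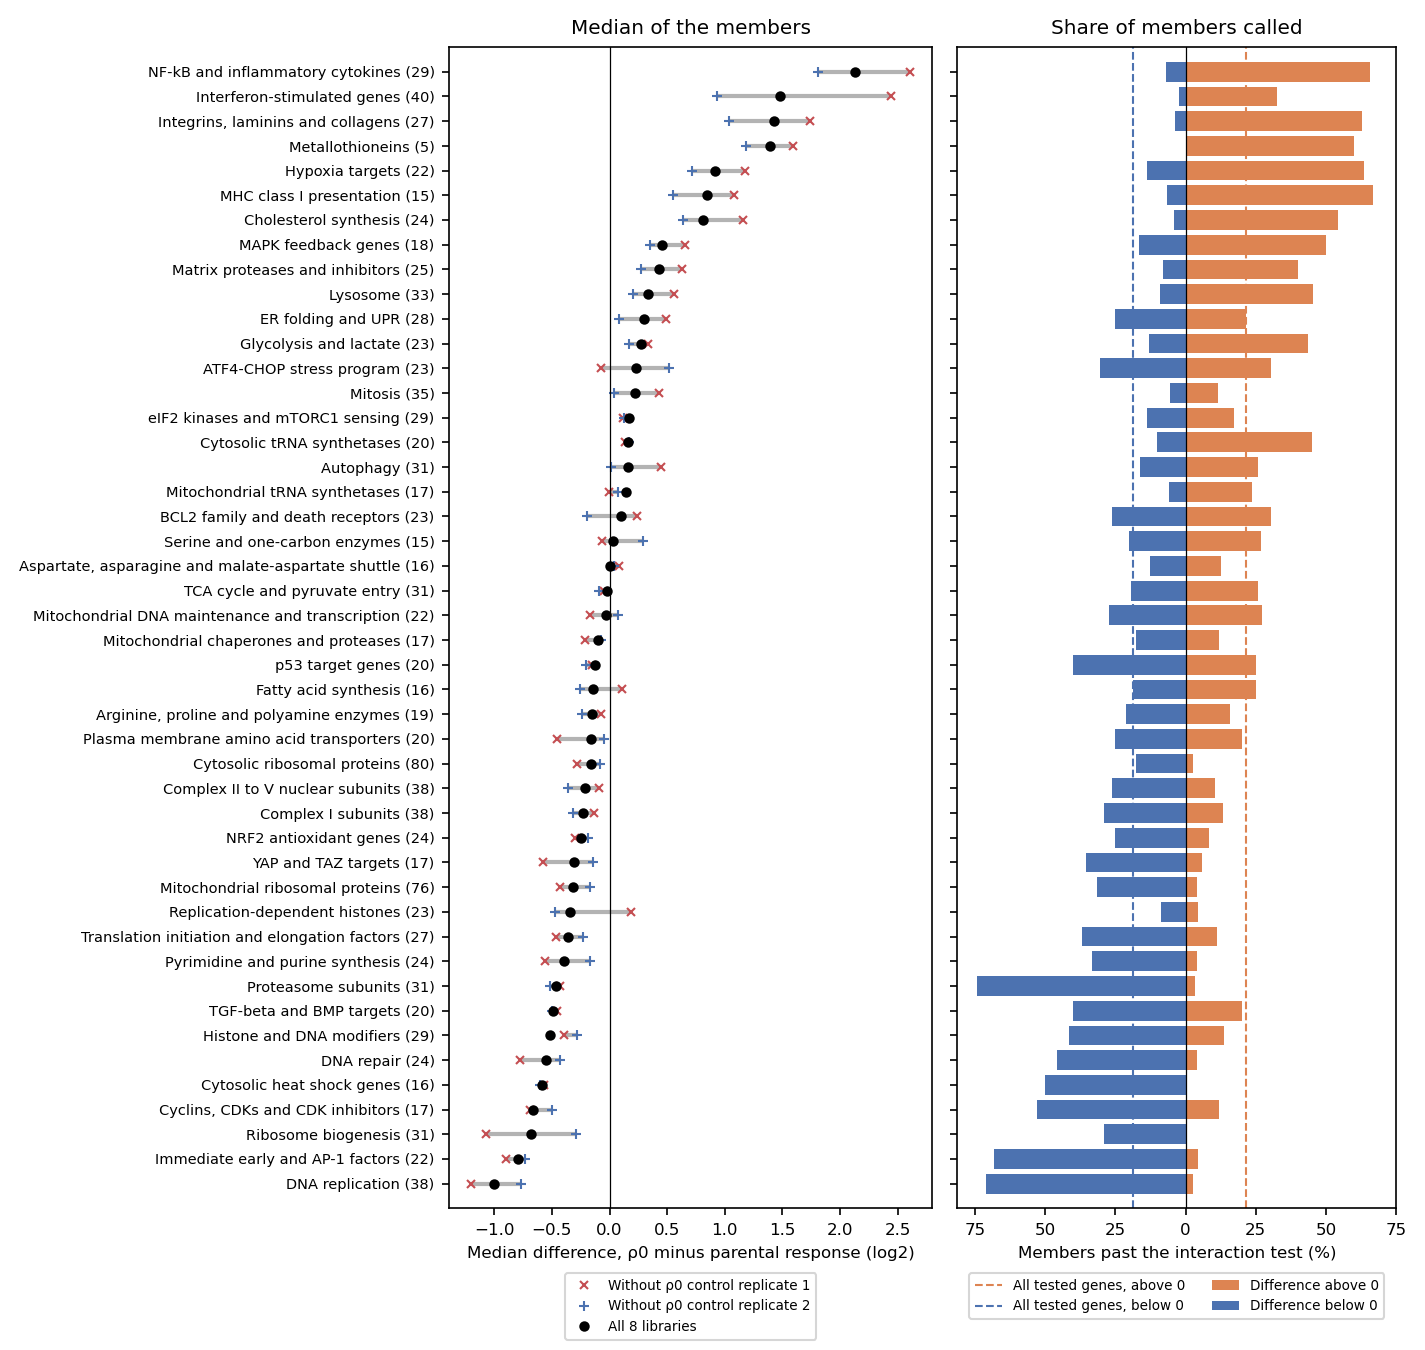
Median difference of each list of functions in log2 units (left, with the number of tested members in brackets; crosses give the medians without each ρ0 control library) and the percent of members called above and below 0 (right), with dashed lines at the shares of all tested genes. DNA replication, immediate early genes and proteasome subunits reach furthest below the background, and NF-kB targets, integrins and laminins, hypoxia targets and antigen presentation furthest above it.

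DNA replication was the list with the lowest median difference. Of its 38 tested genes, 27 had a difference below 0 (71.1%, against 18.8% of all genes) and 1 above, with a median of −1.0. The median response was −0.36 in parental and −1.49 in ρ0 cells, and 36 of the 38 fell in ρ0 cells (94.7%, against 22.1% of all genes). In parental cells 17 fell (44.7%, against 35.5% of all genes) and 5 rose (13.2%, against 30.4%). The ρ0 controls of these genes lay apart, and the spread shared by all groups makes parental falls harder to call. ORC1, the subunit of the origin recognition complex that recruits the MCM loading factors, had the largest difference. ORC1 stood at 24.0 and 21.7 CPM in the parental controls, 16.4 and 15.1 in starved parental cells, 20.8 and 41.5 in the ρ0 controls and 4.16 and 4.18 in starved ρ0 cells. Starved ρ0 libraries lay below all others, parental control and starved libraries did not overlap although their change did not pass the test, and the difference was −2.36 ± 0.42 (adjusted p = 0.0046). CLSPN, an adaptor of the checkpoint kinase CHK1, and UHRF1, which brings DNMT1 to replicated DNA, were chosen after their values were seen. Both rose in parental and fell in ρ0 cells, with differences of −2.16 ± 0.35 and −1.94 ± 0.27, and kept their calls without each library. LIG1, the ligase that joins Okazaki fragments, was the member above 0: it fell by 2.71 in parental and by 1.79 in ρ0 cells, with a difference of 0.91 ± 0.19.

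The 6 subunits of the MCM replicative helicase, MCM2, MCM3, MCM4, MCM5, MCM6 and MCM7, were looked up after the list was seen, and all had a difference below 0, from −1.35 for MCM2 to −0.75 for MCM7. MCM6 stood at 60.7 and 59.4 CPM in the parental controls, 47.0 and 48.6 in starved parental cells, 109 and 199 in the ρ0 controls and 47.6 and 49.5 in starved ρ0 cells. The response of MCM6 was −0.33 in parental cells, which did not pass the test (adjusted p = 0.26), and in ρ0 cells it fell by 1.67. All 6 calls were lost without any one of the libraries other than the ρ0 controls (highest adjusted p = 0.136, for MCM7). Nearly every member, 37 of 38, was higher in ρ0 control replicate 2 than in replicate 1, with a median log2 ratio of 0.69. Leaving out ρ0 control replicate 1, replicate 2 or one of the other libraries gave 2, 3 and 1 members above and 35, 31 and 13 to 15 below. The medians of these fits were −1.20, −0.77 and −1.01 to −0.98.

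The promoters of these genes are shown because E2F factors, which activate replication genes, bind a short motif. RefSeq windows on GRCh38.p14, from 250 bases before to 50 after the start of each gene, were found for 33 of the 38 members. The letters TTTCGCGC or TTTGGCGC, on either strand, were in 12 of them (36.4%), against 403 of 35116 windows of all genes (1.15%). Of the 12 genes with a match, 10 had a difference below 0, and of the 21 without, 13 were below and 1 above. The 200 bases before the start follow for MCM6 (chr2:135876444-135876643, minus strand), E2F1 (chr20:33686386-33686585, minus strand) and E2F2 (chr1:23531234-23531433, minus strand), 5′ to 3′, with matches in capitals. In MCM6 each capital run holds 2 overlapping matches, 1 on each strand.
MCM6: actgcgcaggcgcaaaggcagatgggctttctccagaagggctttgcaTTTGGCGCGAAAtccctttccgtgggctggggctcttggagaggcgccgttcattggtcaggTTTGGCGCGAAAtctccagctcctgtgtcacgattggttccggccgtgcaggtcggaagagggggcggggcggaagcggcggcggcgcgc
E2F1: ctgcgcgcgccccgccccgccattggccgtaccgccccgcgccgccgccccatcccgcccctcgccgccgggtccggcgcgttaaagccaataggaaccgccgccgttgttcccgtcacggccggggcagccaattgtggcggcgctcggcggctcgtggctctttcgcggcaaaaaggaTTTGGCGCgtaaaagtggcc
E2F2: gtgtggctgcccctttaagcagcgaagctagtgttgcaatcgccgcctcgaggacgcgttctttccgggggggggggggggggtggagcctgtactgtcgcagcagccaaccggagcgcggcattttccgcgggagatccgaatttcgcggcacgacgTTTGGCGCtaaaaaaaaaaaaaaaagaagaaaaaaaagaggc
E2F1 and E2F2 themselves had differences of −1.22 ± 0.37 and −2.26 ± 0.57. Both calls were lost without any 1 of the 6 libraries that are not ρ0 controls (adjusted p up to 0.115 and 0.0694). A match is a description of letters and says nothing of binding in these cells.

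Genes around the replication fork followed in part. Of 24 DNA repair genes, 11 were below 0 and 1 above, with a median of −0.55. BARD1, the partner of BRCA1, rose by 0.74 in parental and fell by 0.83 in ρ0 cells (−1.56 ± 0.30), whereas FANCD2 of the Fanconi pathway fell less in ρ0 cells (1.03 ± 0.17). With ρ0 control replicate 1, replicate 2 or one other library left out, 4, 2 and 1 were above and 20, 17 and 5 to 7 below. TYMS, which makes thymidylate, fell by 1.88 in ρ0 cells and did not pass the test in parental cells (0.05, adjusted p = 0.82). Parental libraries held 32.3 and 34.9 CPM of TYMS in control and 35.1 and 34.5 in starved cells, and ρ0 libraries 32.8 and 48.2 in control and 11 and 11.1 in starved cells. Its difference was −1.92 ± 0.25 (adjusted p = 0.0014). With it, 8 of 24 genes of pyrimidine and purine synthesis were below 0 and 1 above (without those libraries, 1, 3 and 1 above and 19, 10 and 3 to 4 below). The exception was CTPS2, a CTP synthase (1.14 ± 0.17). PRPS1, which makes the ribose phosphate donor, fell more in ρ0 cells (−0.90 ± 0.16).

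Mitosis genes did not share this pattern. All but 4 of the 35 fell in each line, 31 in parental and 31 in ρ0 cells (88.6% in each, against 35.5% and 22.1% of all genes), with median responses of −1.56 and −1.34. The difference was above 0 for 4 (11.4%) and below 0 for 2 (5.71%), against backgrounds of 21.6% and 18.8%. NUSAP1, a spindle microtubule protein, and the kinase CDK1 fell further in ρ0 cells, with differences of −0.84 ± 0.11 and −0.58 ± 0.11. CCNB1 and BUB1 fell less (1.70 ± 0.46 and 0.93 ± 0.26), but lost their calls without any one of the 6 libraries that are not ρ0 controls (adjusted p up to 0.0819 and 0.0933). The fits without ρ0 control replicate 1, without replicate 2 and without one other library put 24, 11 and 0 to 1 members above and 4, 10 and 2 below. Only 3 of the 35 were higher in ρ0 control replicate 2 than in replicate 1.

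Cyclins and their regulators split. Of 17, 9 were below 0 and 2 above (without those libraries, 3, 4 and 2 above and 12, 12 and 6 below). CCNE2, a cyclin of S-phase entry, and RBL1, the retinoblastoma relative p107, are known E2F targets and were both opposite responders. In parental cells CCNE2 went from 11 and 10.2 CPM in the controls to 35.0 and 34.2 with starvation, and in ρ0 cells from 25.4 and 62.8 to 16.8 and 18.5. The starved ρ0 libraries lay below both ρ0 controls and above the parental controls, and the difference was −3.02 ± 0.51 (adjusted p = 0.004). For RBL1 it was −2.08 ± 0.29. Above 0 stood CCND2, a D-type cyclin, and CDKN1C, the CDK inhibitor p57. CCND2 stood at 103 and 102 CPM in the parental controls, 262 and 271 in starved parental cells, 1.32 and 1.32 in the ρ0 controls and 27.4 and 27.0 in starved ρ0 cells. CCND2 thus rose in both lines, by 1.38 and 4.36, from a far lower level in ρ0 cells. CDKN1C fell by 0.66 in parental and rose by 1.07 in ρ0 cells. CDKN1A, the p53 target p21, rose in both lines but less in ρ0 cells (2.0 and 0.47, difference −1.53 ± 0.13). Among 20 p53 targets, 8 were below 0 and 5 above (without those libraries, 7, 6 and 3 to 4 above and 10, 8 and 6 below), and the apoptosis-enhancing nuclease AEN (−1.60) and the AKT regulator PHLDA3 (3.34) lay at the ends of the list. Histone and DNA modifiers had 12 of 29 below 0 and 4 above (without those libraries, 8, 6 and 2 to 3 above and 17, 15 and 7 to 9 below), with the maintenance methyltransferase DNMT1 rising in parental and falling in ρ0 cells (−1.14 ± 0.14) and the deacetylase HDAC5 (1.80) and hypoxia-induced demethylase KDM3A (1.07) above 0.

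Immediate early genes, the transcription factors that cells induce within minutes of a stimulus, rose in most cases in parental cells. Of 22, 20 rose in parental cells (90.9%, against 30.4% of all genes) and 9 in ρ0 cells (40.9%, against 19.2%), with median responses of 1.81 and 0.36. The difference was below 0 for 15 (68.2%, against 18.8% of all genes), above 0 for 1, and its median was −0.80. Parental libraries held 11.3 and 11.9 CPM of EGR1 in control and 155 and 161 in starved cells, and ρ0 libraries 6.42 and 26.2 in control and 12.3 and 11.7 in starved cells. EGR1 libraries of parental cells did not overlap, those of ρ0 cells did, and the difference was −4.21 ± 0.73 (adjusted p = 0.0044). FOSB, a subunit of AP-1, rose by 3.95 in parental cells and gave −0.11 in ρ0 cells, which did not pass the test (adjusted p = 0.89), with a difference of −4.06 ± 0.73. FOS, JUN, EGR2 and EGR3, named after their values were seen, had differences of −2.84, −0.79, −2.83 and −3.93 and kept their calls without each library. IER3, an NF-kB-responsive survival gene, was the single member above 0. The parental controls held 754 and 829.7 CPM of IER3 and the starved parental libraries 479 and 485, and the ρ0 libraries 402 and 351 in control and 575 and 553 in starved cells. It fell in parental and rose in ρ0 cells, with a difference of 1.30 ± 0.13. Above 0 were 2, 1 and 1, and below 0 19, 20 and 10 to 12, when ρ0 control replicate 1, replicate 2 or one other library was left out.

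Feedback genes of the MAPK pathway, which ERK induces and which restrain it, did not follow. Here 9 of 18 were above 0 and 3 below, with a median of 0.45 (without those libraries, 12, 10 and 6 to 7 above and 3, 4 and 2 to 3 below). DUSP4 stood at 974 and 979 CPM in the parental controls, 195 and 198 in starved parental cells, 489 and 482 in the ρ0 controls and 548 and 524 in starved ρ0 cells. DUSP4, a phosphatase of ERK, fell without overlap in parental cells, while its ρ0 control libraries lay just below the starved ones and the change did not pass the test (adjusted p = 0.15). Its difference was 2.46 ± 0.10 (adjusted p = 3.6e-05). ETV1, an ETS factor downstream of ERK, fell less in ρ0 cells (3.07 ± 0.46), and PHLDA2 and the ephrin receptor EPHA4 rose less (−1.27 ± 0.20 and −0.92 ± 0.18).

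Targets of TGF-beta and BMP signalling, to which ID3 belongs, moved in both directions, 8 of 20 below 0 and 4 above (without those libraries, 7, 6 and 3 above and 10, 10 and 5 to 6 below). SKIL, which restrains SMAD factors, rose by 1.91 in parental cells and did not pass the test in ρ0 cells (0.30, adjusted p = 0.18). TGFBI, a secreted matrix protein, fell from 19.9 and 20.3 CPM to 1.39 and 1.21 in parental cells and from 249 and 216 to 154 and 147 in ρ0 cells, a difference of 3.33 ± 0.16. NOG, a secreted BMP antagonist, also fell less in ρ0 cells (1.55 ± 0.19). Of 17 targets of the coactivators YAP and TAZ, 6 were below 0 and 1 above (without those libraries, 3, 2 and 0 to 1 above and 11, 8 and 4 to 5 below). ANKRD1 and F3, tissue factor, rose in parental cells (1.53 and 1.57) and not beyond the test in ρ0 cells, with differences of −1.75 and −1.31.

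Subunits of the proteasome, the protease that degrades ubiquitinated proteins, mostly had differences below 0. Of 31, 23 were below 0 (74.2%, against 18.8% of all genes), 1 was above, and the median difference was −0.46. In parental cells 15 rose (48.4%) and 8 fell (25.8%), against 30.4% and 35.5% of all genes, and in ρ0 cells 4 rose (12.9%) and 18 fell (58.1%), against 19.2% and 22.1%. Parental libraries held 112 and 116 CPM of PSMC4 in control and 215 and 225 in starved cells, and ρ0 libraries 165 and 204 in control and 158 and 161 in starved cells. For PSMC4, an ATPase subunit of the base, starved parental libraries exceeded their controls, whereas starved ρ0 libraries lay below both of theirs without passing the test (adjusted p = 0.16). The difference was −1.15 ± 0.15 (adjusted p = 0.0015). PSMD14, the lid enzyme that removes ubiquitin, rose in both lines but less in ρ0 cells (−1.01 ± 0.10). The exception, PSMD1, a scaffold subunit of the base, fell in both lines, and its difference of 0.51 ± 0.11 was lost without starved parental replicate 1 or either starved ρ0 library (adjusted p = 0.057 to 0.0641). In the fits that left out ρ0 control replicate 1, replicate 2 or one other library, 2, 1 and 0 to 1 were above and 24, 25 and 12 to 16 below.

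Cytosolic heat shock genes gave no difference above 0 and 8 of 16 below, with a median of −0.59 (without those libraries, 0, 0 and 0 above and 13, 11 and 6 to 7 below). HSPB8, a small heat shock protein, rose by 1.88 in parental cells and gave 0.38 in ρ0 cells, which did not pass the test (adjusted p = 0.093), with a difference of −1.50 ± 0.22. HSPA1A, an inducible HSP70 with a near-identical copy, HSPA1B, so that its reads are uncertain, had a response of 0.11 that did not pass the test in parental cells and fell by 1.17 in ρ0 cells, with a difference of −1.28 ± 0.23.

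Genes that build ribosomes leaned below 0, but depended on the ρ0 controls. Of 31 ribosome biogenesis genes, 26 rose in parental cells (83.9%, against 30.4% of all genes) and 5 in ρ0 cells (16.1%, against 19.2%), and 9 differed below 0 (29%) with a median of −0.68. All 31 were higher in ρ0 control replicate 2 than in replicate 1, with a median log2 ratio of 0.84. Leaving out ρ0 control replicate 1, replicate 2 or one of the other libraries gave 0, 1 and 0 members above and 31, 18 and 0 to 2 below. Its median was −1.07 without replicate 1 and −0.29 without replicate 2. RRP9 and RRP12 of small subunit processing had differences of −1.43 and −1.42, both lost without any one of the 6 libraries that are not ρ0 controls (adjusted p up to 0.119). Cytosolic ribosomal proteins had 14 of 80 below 0 (17.5%, near the 18.8% of all genes) but only 2 above (2.5%, against 21.6% of all genes). Mitochondrial ribosomal proteins had 24 of 76 below 0 (31.6%) and 3 above (3.95%). Without those libraries, in the same order, the cytosolic list had 7, 22 and 0 to 1 above and 46, 27 and 4 to 6 below 0, and the mitochondrial list 4, 18 and 0 to 1 above and 52, 36 and 8 to 13 below. RPL24 and RPL38 of the large cytosolic subunit rose in parental cells (1.09 and 0.84) and did not pass in ρ0 cells (−0.27 and −0.20). MRPS18C of the small mitochondrial subunit rose by 0.87 in parental and fell by 0.44 in ρ0 cells, without overlap in either line, a difference of −1.31 ± 0.15. Pseudogenes and paralogs share sequence with ribosomal protein genes, so single members are uncertain. Translation factors had 10 of 27 below 0 and 3 above (without those libraries, 4, 5 and 1 above and 20, 16 and 3 to 5 below), with EIF4B, which assists the helicase eIF4A, above 0 (1.0 ± 0.18).

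The nuclear genes of oxidative phosphorylation encode the subunits that join those made from mitochondrial DNA. Of 38 complex I subunits, 11 were below 0 (28.9%, against 18.8% of all genes) and 5 above (13.2%, against 21.6%), with median responses of −0.12 in parental and −0.30 in ρ0 cells. For 38 nuclear subunits of complexes II to V, 10 were below (26.3%) and 4 above (10.5%), against the same backgrounds. With those libraries left out, complex I had 9, 6 and 2 to 3 above and 17, 22 and 1 to 2 below 0, and the other complexes 8, 7 and 1 above and 13, 22 and 7 below. In parental cells NDUFB7 went from 50.5 and 54.8 CPM in the controls to 13.6 and 12.8 with starvation, and in ρ0 cells from 57.1 and 53.3 to 25.3 and 25.5. NDUFB7 fell in both lines, less in ρ0 cells (0.88 ± 0.13), NDUFB10 fell in parental cells (−0.82) and did not pass in ρ0 cells (−0.10), and NDUFB6 fell in both (−1.13 and −1.18). The difference of NDUFB6, −0.06 ± 0.16 (adjusted p = 0.8), changed sign under upper quartile scaling (0.04), scaling to library totals (0.03) and without ρ0 control replicate 1 (0.09). It was −0.22 without replicate 2. ATP5G1, which encodes subunit c of ATP synthase and has paralogs for the same protein, rose in parental and fell in ρ0 cells (−1.26 ± 0.19), as HSPE1, the mitochondrial chaperonin partner, did (−1.22 ± 0.17). COX7A2 of complex IV rose in parental cells alone by the tests of each line (−0.90 ± 0.19). OMA1, the protease that starts the mitochondrial stress signal, fell by 1.0 in parental and rose by 0.51 in ρ0 cells (1.51 ± 0.17).

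Other mitochondrial lists were mixed. Mitochondrial chaperones and proteases had 2 of 17 above and 3 below (without those libraries, 3, 6 and 1 to 2 above and 9, 6 and 1 below). Genes of mitochondrial DNA maintenance and transcription had 6 of 22 each way (without those libraries, 7, 8 and 4 to 5 above and 10, 8 and 2 to 4 below). Their median of −0.03 turned above 0 under upper quartile scaling (0.06), total count scaling and limma-voom with or without a weight per group. It also did so without parental control replicate 2, starved parental replicate 2 or ρ0 control replicate 2 (0.07 for the last). TK2, the mitochondrial thymidine kinase, fell by 1.76 in parental cells and did not pass in ρ0 cells (1.88 ± 0.14), as did TFB1M, a methyltransferase of mitochondrial rRNA (1.55 ± 0.21), while MGME1, a mitochondrial exonuclease, rose less in ρ0 cells (−0.82 ± 0.11). In the TCA cycle and pyruvate entry, 8 of 31 were above 0 and 6 below (without those libraries, 11, 10 and 7 to 8 above and 13, 13 and 2 below). IDH1 stood at 51.1 and 56.6 CPM in the parental controls, 3.05 and 4.25 in starved parental cells, 83.1 and 39.7 in the ρ0 controls and 76.0 and 75.1 in starved ρ0 cells. IDH1, the cytosolic isocitrate dehydrogenase, fell to under 5 CPM in parental cells, while its starved ρ0 libraries lay within the range of the ρ0 controls, and the difference was 4.17 ± 0.47 (adjusted p = 0.00091). ACO1, a cytosolic aconitase that also binds iron response elements, fell less in ρ0 cells (1.46 ± 0.10), and PDK1, which inhibits pyruvate dehydrogenase, rose less (−0.85 ± 0.15).

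Antioxidant genes of the NRF2 pathway were below 0 for 6 of 24 (25%) and above for 2 (8.33%), with a median of −0.25, or −0.37 with 3 members held at the floor. With ρ0 control replicate 1, replicate 2 or one other library left out, 9, 7 and 1 to 2 were above and 13, 11 and 4 below. Parental libraries held 29.3 and 27.2 CPM of GCLM in control and 108 and 109 in starved cells, and ρ0 libraries 124 and 129 in control and 121 and 112 in starved cells. GCLM, which limits glutathione synthesis, rose in starved parental cells to just below the ρ0 libraries. Starved ρ0 libraries lay below both ρ0 controls without passing the test (adjusted p = 0.27), with a difference of −2.06 ± 0.11 (adjusted p = 9.7e-05). HMOX1, the heme-degrading enzyme, rose by 3.13 in parental and 0.69 in ρ0 cells, a difference of −2.44 ± 0.19. NQO1, a quinone reductase, moved the other way from these: it fell in parental cells (−2.19) and did not pass in ρ0 cells (−0.47). The 5 of 10 metallothioneins that could be tested are close copies of one another, so their reads are uncertain, and 3 were above 0 and none below, as in every fit that left out a library. MT1X and MT2A, which bind zinc and copper, fell in parental and rose in ρ0 cells (3.22 ± 0.25 and 2.57 ± 0.12). The parental controls held 39.7 and 39.4 CPM of MT1X and the starved parental libraries 9.03 and 8.40, and the ρ0 libraries 14.8 and 10.1 in control and 26.3 and 24.8 in starved cells. Control and starved libraries did not overlap in either line.

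The ATF4-CHOP program rose in both lines, and which members differed depended on the gene. Of 23 genes, 18 rose in parental cells (78.3%, against 30.4% of all genes) and 22 in ρ0 cells (95.7%, against 19.2%), with medians of 1.44 and 1.57, and 7 rose less and 7 rose more in ρ0 cells. ATF3 stood at 8.69 and 9.34 CPM in the parental controls, 166 and 169.7 in starved parental cells, 14 and 22.0 in the ρ0 controls and 74.0 and 71.5 in starved ρ0 cells. ATF3, a stress-induced repressor, rose without overlap in both lines and by less in ρ0 cells (−2.20 ± 0.26, adjusted p = 0.0011). The window of ATF3 is shown because it holds TGATGNAA, the letters of a C/EBP-ATF composite element, where N is any base, as do 2 of 20 windows in this list (10%) and 3.62% of all windows, with both strands searched. The 200 bases before the start of ATF3 (chr1:212565207-212565406, plus strand, GRCh38.p14 by RefSeq) are given 5′ to 3′, with the match in capitals.
ATF3: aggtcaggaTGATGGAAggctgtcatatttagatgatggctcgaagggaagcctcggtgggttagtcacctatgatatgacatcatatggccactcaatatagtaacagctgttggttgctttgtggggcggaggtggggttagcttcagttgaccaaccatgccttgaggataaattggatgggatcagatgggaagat
ATF5, another ATF factor, and INHBE, an inhibin chain, rose less in ρ0 cells as well (−2.01 and −2.93). Both were chosen after their values were seen. INHBE had the lowest difference of the list but did not meet all limits of the rule for named genes. These were a call, a mean of 5 CPM or more and the same sign for every choice of 1 library per group. The value of INHBE is therefore less certain. TRIB3, a pseudokinase that restrains ATF4 and AKT, rose more in ρ0 cells. Parental libraries held 40.4 and 43.9 CPM of TRIB3 in control and 40.7 and 38.4 in starved cells, and ρ0 libraries 30.6 and 65.3 in control and 174 and 163 in starved cells. Its parental libraries overlapped, its ρ0 libraries did not, and the difference was 1.90 ± 0.41 (adjusted p = 0.01). ADM2, a secreted peptide hormone, rose by 1.61 and 3.38 (1.77 ± 0.23).

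ATF4 itself rose by 1.75 in parental and 0.89 in ρ0 cells. Its difference of −0.85 ± 0.20 (adjusted p = 0.014) was lost without any one of the 6 libraries that are not ρ0 controls (adjusted p = 0.0504 to 0.0594). PPP1R15A, the phosphatase subunit GADD34 that ends the response, had a difference of −2.20 ± 0.48, lost without either parental control (adjusted p = 0.0503 and 0.0508). In parental cells ASNS went from 77.9 and 81.1 CPM in the controls to 407 and 415 with starvation, and in ρ0 cells from 34.8 and 69.8 to 409 and 412. ASNS, asparagine synthetase, thus rose without overlap in both lines, to starved levels that lay within a few CPM of each other. Its difference was 0.60 ± 0.37 (adjusted p = 0.24), and was 0.19 without ρ0 control replicate 1 and 1.16 without replicate 2. Among the fits to all 8 libraries, the difference of ASNS passed the test only with a weight per group in limma-voom (0.68). DDIT3, which encodes CHOP, differed by 0.59 ± 0.27 (adjusted p = 0.12), and by 0.31 without ρ0 control replicate 1 and 0.91 without replicate 2. The median difference of the list was 0.23, but −0.07 without ρ0 control replicate 1 and 0.52 without replicate 2, and 15 of its 23 members were higher in replicate 2. The fits without ρ0 control replicate 1, without replicate 2 and without one other library put 9, 13 and 4 to 6 members above and 10, 7 and 4 to 6 below.

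Genes of ER folding and the unfolded protein response rose for 15 of 28 members in parental cells (53.6%, against 30.4% of all genes) and 13 in ρ0 cells (46.4%, against 19.2%). The difference was above 0 for 6 (21.4%) and below for 7 (25%), near the 21.6% and 18.8% of all genes. ERN1, the sensor IRE1, rose more in ρ0 cells (1.25 and 2.18, difference 0.93 ± 0.19), and SEC61B of the translocon rose less (−1.02 ± 0.11). XBP1, which IRE1 splices, rose by 2.53 and 1.68, and its difference of −0.86 ± 0.21 was lost without any one of the 6 libraries that are not ρ0 controls (adjusted p up to 0.0709). HSPA5, the chaperone BiP, differed by 0.70 ± 0.27 (adjusted p = 0.08), with 1.09 without ρ0 control replicate 1 and 0.37 without replicate 2. Among the fits to all 8 libraries, the difference of HSPA5 passed the test in DESeq2, the fit without a filter and the weighted fit. Above 0 were 17, 11 and 2 to 5, and below 0 8, 10 and 3 to 4, when ρ0 control replicate 1, replicate 2 or one other library was left out.

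Amino acid transporters of the plasma membrane rose in both lines, 14 of 20 in parental cells (70%, against 30.4% of all genes) and 12 in ρ0 cells (60%, against 19.2%). Of their differences, 4 were above 0 (20%) and 5 below (25%), near the 21.6% and 18.8% of all genes. SLC3A2 and SLC7A5, which together form a large neutral amino acid exchanger, rose less in ρ0 cells. SLC3A2 stood at 135 and 144 CPM in the parental controls, 1426 and 1448 in starved parental cells, 304 and 535 in the ρ0 controls and 1158 and 1158 in starved ρ0 cells. Starved libraries of SLC3A2 lay above the controls in both lines, and its difference was −1.90 ± 0.32, that of SLC7A5 −1.60 ± 0.32. SLC1A1, a glutamate transporter, fell in parental cells and did not pass in ρ0 cells (2.82 ± 0.60). SLC7A2, a cationic transporter that carries arginine, rose in ρ0 cells (1.96) and not beyond the test in parental cells (0.21). Its difference of 1.75 ± 0.42 was lost without parental control replicate 1, either starved parental library or starved ρ0 replicate 1 (adjusted p = 0.0506 to 0.0609). In the fits that left out ρ0 control replicate 1, replicate 2 or one other library, 5, 6 and 2 to 4 were above and 11, 7 and 3 to 4 below.

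Cytosolic tRNA synthetases had 9 of 20 above 0 (45%, against 21.6% of all genes) and 2 below. CARS, for cysteine, rose in ρ0 cells (0.73) and did not pass in parental cells (−0.05), with a difference of 0.78 ± 0.15. QARS, for glutamine, fell in both lines and less in ρ0 cells (1.26 ± 0.14). Leaving out ρ0 control replicate 1, replicate 2 or one of the other libraries gave 10, 10 and 4 to 5 members above and 9, 4 and 0 to 1 below. Of 17 mitochondrial synthetases, 4 were above and 1 below (without those libraries, 6, 7 and 1 above and 6, 3 and 0 below). Parental libraries held 35.9 and 39.5 CPM of SARS2 in control and 1.78 and 1.77 in starved cells, and ρ0 libraries 20.8 and 22.2 in control and 5.10 and 4.68 in starved cells. SARS2, for serine, fell without overlap in both lines and less in ρ0 cells (2.27 ± 0.17).

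Serine and one-carbon enzymes were mixed, 4 of 15 above 0 and 3 below (without those libraries, 5, 8 and 1 to 3 above and 4, 4 and 2 to 3 below). The parental controls held 78.4 and 81.3 CPM of PHGDH and the starved parental libraries 48.0 and 49.4, and the ρ0 libraries 0.937 and 1.13 in control and 5.0 and 4.22 in starved cells. PHGDH, the first enzyme of serine synthesis, fell by 0.71 in parental cells and rose by 2.16 in ρ0 cells from a much lower level, without overlap in either line, with a difference of 2.87 ± 0.19 (adjusted p = 0.00017). Of 16 genes of aspartate, asparagine and the malate-aspartate shuttle, 2 were above and 2 below (12.5% each way; without those libraries, 6, 6 and 0 to 2 above and 6, 3 and 0 to 1 below). Of 19 genes of arginine, proline and polyamine metabolism, 3 were above and 4 below (without those libraries, 6, 6 and 0 to 1 above and 9, 9 and 2 to 4 below). AMD1, the decarboxylase that feeds polyamine synthesis, rose by 1.87 and 0.41, a difference of −1.46 ± 0.11, and SMOX, which oxidises spermine, also rose less in ρ0 cells (−0.94 ± 0.16). ASS1, which makes arginine from citrulline, had 10 and 3 counts in the parental controls and 1 and 2 in the starved parental libraries, too few for a fold. In ρ0 cells ASS1 had 183 and 358 counts in the controls and 684 and 538 after starvation, 6.35 and 11.5 against 23.1 and 22.3 CPM, a rise of 1.34. Its fitted difference depends on the prior count, and its call was lost without 5 of the libraries (adjusted p up to 0.282), those other than the ρ0 controls and parental control replicate 2.

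**Figure D3:**
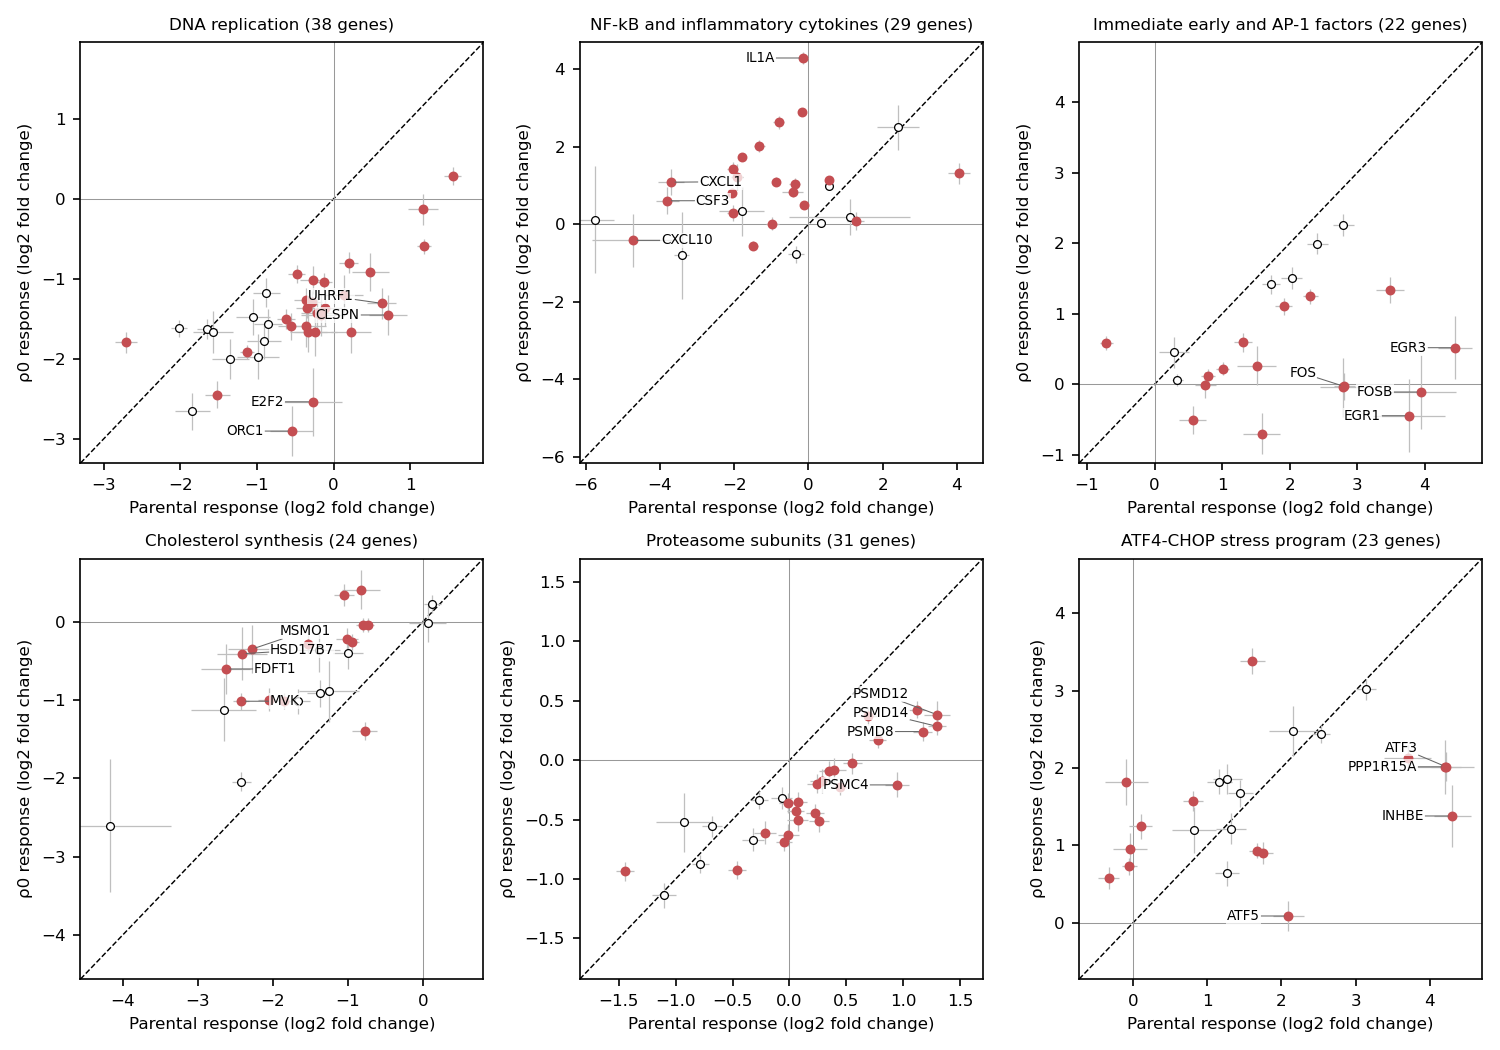
Log2 response of the tested members of 6 lists in parental cells (x axis) and ρ0 cells (y axis), with standard errors as grey lines, filled where the difference passed the interaction test and open where it did not. Most replication, immediate early and proteasome genes lie below the dashed line of equal responses, most NF-kB and cholesterol genes above it, and ATF4-CHOP genes on both sides.

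Inflammatory genes driven by NF-kB formed the list with the highest median difference, 2.13. Of 29, 19 were above 0 (65.5%, against 21.6% of all genes) and 2 below. In parental cells 16 fell (55.2%, against 35.5% of all genes) and 6 rose, in ρ0 cells 2 fell and 17 rose (58.6%, against 19.2%), and 8 were opposite responders. CXCL1 stood at 54.2 and 64.2 CPM in the parental controls, 4.51 and 4.54 in starved parental cells, 6.87 and 2.80 in the ρ0 controls and 10.4 and 10.1 in starved ρ0 cells. CXCL1, a chemokine that attracts neutrophils, fell by 3.71 in parental cells and rose in ρ0 cells, where the starved libraries lay above both controls, with a difference of 4.80 ± 0.49 (adjusted p = 0.00063). Its relative CXCL2 differed by 3.35 ± 0.22. Parental libraries held 74.4 and 78.8 CPM of IL1A in control and 68.5 and 71.0 in starved cells, and ρ0 libraries 4.16 and 3.02 in control and 70.6 and 70.3 in starved cells. IL1A, the cytokine interleukin 1 alpha, lay slightly lower in starved than in control parental libraries, which did not pass the test (adjusted p = 0.34), and rose in ρ0 cells from a low level into the parental range, a difference of 4.43 ± 0.19 (adjusted p = 3.6e-05). In parental cells IL1B went from 439.8 and 472 CPM in the controls to 134 and 130.2 with starvation, and in ρ0 cells from 5.10 and 5.18 to 17.4 and 17.2. IL1B fell in parental and rose in ρ0 cells without overlap, but stayed far below its parental level (3.54 ± 0.11, adjusted p = 2.1e-05). IL6, CXCL8, CSF2, CSF3 and PTGS2, cytokines and the prostaglandin synthase COX-2 named after their values were seen, had differences of 1.97, 3.44, 3.09, 4.42 and 3.15, and kept their calls without each library. IL11, a cytokine of the IL-6 family, was below 0: it rose from 36.6 and 40.5 CPM to 654 and 629 in parental cells and from 15.9 and 31.2 to 57.3 and 60.0 in ρ0 cells (−2.74 ± 0.37). With ρ0 control replicate 1, replicate 2 or one other library left out, 22, 21 and 14 to 17 were above and 4, 4 and 1 to 2 below.

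Interferon-stimulated genes had a median difference of 1.48, or 1.19 with 6 members held at the floor. Of 40, 25 fell in parental cells (62.5%, against 35.5% of all genes) and 6 in ρ0 cells (15%, below the 22.1% of all genes). The difference was above 0 for 13 (32.5%, against 21.6%) and below for 1. All but 1 of the 40 were higher in ρ0 control replicate 1 than in replicate 2, with a median log2 ratio of −1.37. The fits without ρ0 control replicate 1, without replicate 2 and without one other library put 32, 23 and 3 to 5 members above and 2, 8 and 1 below. The median was 2.44 without replicate 1 and 0.93 without replicate 2. OAS1 stood at 14.4 and 16.2 CPM in the parental controls, 0.119 and 0.248 in starved parental cells, 23.7 and 3.99 in the ρ0 controls and 5.98 and 6.17 in starved ρ0 cells. The ρ0 controls of OAS1, which senses double-stranded RNA, lay on both sides of the starved ρ0 libraries, and its difference of 5.14 ± 1.30 was lost without parental control replicate 2, either starved parental library or starved ρ0 replicate 1 (adjusted p = 0.0504 to 0.0764). IRF1, a transcription factor of this response, was the member below 0, rising in both lines but less in ρ0 cells (−0.94 ± 0.16). Antigen presentation on MHC class I also leaned above 0, with 10 of 15 members there (66.7%) and 1 below (without those libraries, 13, 11 and 5 to 8 above and 1, 2 and 0 below). Parental libraries held 21.3 and 21.4 CPM of PSMB9 in control and 0.95 and 1.06 in starved cells, and ρ0 libraries 62.4 and 37.2 in control and 26.7 and 29.0 in starved cells. PSMB9, an inducible subunit of the immunoproteasome, fell in both lines without overlap and by less in ρ0 cells (3.56 ± 0.37, adjusted p = 0.0007). HLA-F, whose reads are uncertain among close HLA genes, fell in parental cells and did not pass in ρ0 cells (2.63 ± 0.52).

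Genes of integrins, laminins and collagens, which hold epithelial cells to their matrix, were above 0 for 17 of 27 (63%, against 21.6% of all genes) and below for 1, with a median of 1.43. In parental cells 19 fell (70.4%, against 35.5% of all genes) and in ρ0 cells 3 did (11.1%, against 22.1%). ITGB4, an integrin subunit of epithelial cells, fell from 109 and 104 CPM to 2.53 and 1.99 in parental cells. In ρ0 cells it stood at 600 and 317 CPM in the controls and 306 and 305 after starvation, and the difference was 4.97 ± 0.42. The parental controls held 107 and 101 CPM of COL6A1 and the starved parental libraries 9.5 and 9.78, and the ρ0 libraries 444 and 368 in control and 639 and 628 in starved cells. COL6A1, a collagen VI chain, fell by 3.43 in parental and rose by 0.64 in ρ0 cells without overlap in either line (4.07 ± 0.15, adjusted p = 3.6e-05), and COL12A1 was an opposite responder in the other direction (−1.54 ± 0.13). Above 0 were 25, 22 and 14 to 16, and below 0 1, 2 and 1, when ρ0 control replicate 1, replicate 2 or one other library was left out. Among matrix proteases and their inhibitors, 10 of 25 were above 0 and 2 below (without those libraries, 16, 13 and 8 to 9 above and 2, 4 and 0 to 2 below). PLAT stood at 865 and 921 CPM in the parental controls, 94.3 and 95.2 in starved parental cells, 992 and 419 in the ρ0 controls and 1490.3 and 1542 in starved ρ0 cells. PLAT, tissue plasminogen activator, fell in parental cells without overlap and rose in ρ0 cells (4.34 ± 0.48). MMP9, a gelatinase, fell from 21.7 and 23.6 to 0.594 and 0.390 CPM in parental cells and was below 1 CPM in every ρ0 library (6.04 ± 0.89). The size of its difference is therefore uncertain, and was 8.23 without ρ0 control replicate 1 and 5.15 without replicate 2. ADAMTS1 rose by 2.19 in parental cells, and its difference of −3.69 ± 0.81 was lost without starved ρ0 replicate 1 (adjusted p = 0.0529).

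Most genes of cholesterol synthesis fell in parental cells, and many fell less in ρ0 cells. Of 24 genes, 22 fell in parental cells (91.7%, against 35.5% of all genes) and 8 in ρ0 cells (33.3%, against 22.1%), with medians of −1.38 and −0.41, and 13 were above 0 (54.2%, against 21.6% of all genes) and 1 below. Parental libraries held 331 and 349.7 CPM of FDFT1 in control and 54.2 and 55.8 in starved cells, and ρ0 libraries 135 and 59.6 in control and 63.4 and 64.6 in starved cells. FDFT1, squalene synthase, fell without overlap in parental cells to about the level of the starved ρ0 libraries, which lay between the ρ0 controls, and its difference was 2.02 ± 0.45 (adjusted p = 0.011). SQLE, HMGCS1 and MVK, enzymes of the same pathway named after their values were seen, differed by 1.39, 1.24 and 1.40 and kept their calls without each library. EBP, a sterol isomerase, was the member below 0 (−0.62 ± 0.20), a call lost under 12 of 17 alternatives (adjusted p up to 0.158). These were the 6 fits without a library other than a ρ0 control, upper quartile and total count scaling, no filter on low counts, DESeq2, limma-voom and the replicate block. In the fits that left out ρ0 control replicate 1, replicate 2 or one other library, 22, 19 and 9 to 11 were above and 1, 2 and 0 below. Of the 24, 3 were higher in ρ0 control replicate 2 than in replicate 1. Fatty acid synthesis was mixed, 4 of 16 above 0 and 3 below (without those libraries, 7, 4 and 3 above and 6, 9 and 1 to 2 below). ACSS2, which makes acetyl-CoA from acetate, fell less in ρ0 cells (1.73 ± 0.19), and ACACA, acetyl-CoA carboxylase, rose in parental cells alone by the tests of each line (−0.80 ± 0.16).

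Hypoxia targets were above 0 for 14 of 22 (63.6%) and below for 3, with a median of 0.92, or 0.80 with the member at the floor held there. In parental cells NDRG1 went from 846 and 708 CPM in the controls to 79.9 and 78.1 with starvation, and in ρ0 cells from 307 and 211 to 318 and 310.0. NDRG1, a growth-restraining gene induced by hypoxia, fell without overlap in parental cells, and in ρ0 cells its starved libraries lay just above both controls without passing the test (adjusted p = 0.23). The difference was 3.58 ± 0.25 (adjusted p = 0.0002). EGLN3, a prolyl hydroxylase that marks HIF for degradation, fell less in ρ0 cells (2.51 ± 0.23), VEGFA, chosen after its values were seen, rose more (1.01 ± 0.19), and ANGPTL4, a lipase inhibitor, rose in parental cells and not in ρ0 cells (2.36 and 0.00, difference −2.36 ± 0.31). Leaving out ρ0 control replicate 1, replicate 2 or one of the other libraries gave 18, 15 and 10 to 12 members above and 4, 3 and 2 to 3 below. Glycolysis, on which ρ0 cells depend, fell in both lines, 16 of 23 genes in parental cells (69.6%, against 35.5% of all genes) and 13 in ρ0 cells (56.5%, against 22.1%), with 10 differences above 0 and 3 below (without those libraries, 13, 12 and 6 to 7 above and 8, 5 and 0 to 1 below). ALDOC, an aldolase, and PFKFB4, a regulator of phosphofructokinase, fell less in ρ0 cells (3.0 ± 0.22 and 1.72 ± 0.28).

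Lysosomal genes were above 0 for 15 of 33 (45.5%) and below for 3. CTSS stood at 6.21 and 6.46 CPM in the parental controls, 1.23 and 1.67 in starved parental cells, 80.4 and 45 in the ρ0 controls and 79.4 and 78.7 in starved ρ0 cells. CTSS, the protease cathepsin S, fell in parental cells without overlap, while its starved ρ0 libraries lay within the range of the ρ0 controls (2.45 ± 0.41). ATP6V0E1 and ATP6V1D of the proton pump fell more in ρ0 cells (−0.64 ± 0.11 and −0.62 ± 0.11). With ρ0 control replicate 1, replicate 2 or one other library left out, 19, 16 and 12 to 14 were above and 6, 11 and 2 below. Autophagy genes had 8 of 31 above (25.8%) and 5 below (16.1%), near the 21.6% and 18.8% of all genes (without those libraries, 15, 10 and 5 to 6 above and 10, 10 and 1 to 3 below). Parental libraries held 41.1 and 41.9 CPM of ULK1 in control and 19.6 and 18.2 in starved cells, and ρ0 libraries 36.1 and 22.6 in control and 79.0 and 76.0 in starved cells. ULK1, the kinase that starts autophagy, fell in parental and rose in ρ0 cells without overlap (2.53 ± 0.28, adjusted p = 0.00084), and NBR1, a cargo receptor, fell in parental cells alone by the tests of each line (1.21 ± 0.25). Among BCL2 family members and death receptors, 7 of 23 were above and 6 below (without those libraries, 13, 8 and 3 to 5 above and 8, 9 and 4 below). BMF, a pro-apoptotic member, was an opposite responder (−1.99 and 0.48, difference 2.48 ± 0.19), and BCL2 itself rose in parental cells and did not pass in ρ0 cells (−1.45 ± 0.23). The eIF2 kinases and mTORC1 sensors had 5 of 29 above and 4 below (without those libraries, 12, 11 and 1 to 4 above and 7, 8 and 1 to 2 below), with FNIP1, a partner of the sensor folliculin, rising less in ρ0 cells (−0.78 ± 0.12). Replication-dependent histones, of which 23 of 69 could be tested and whose RNAs lack poly(A) tails, had 1 above and 2 below (without those libraries, 6, 1 and 0 to 1 above and 2, 7 and 2 below). HIST1H1C, the histone H1.2, rose in both lines and less in ρ0 cells (−1.73 ± 0.21).

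**Figure D4:**
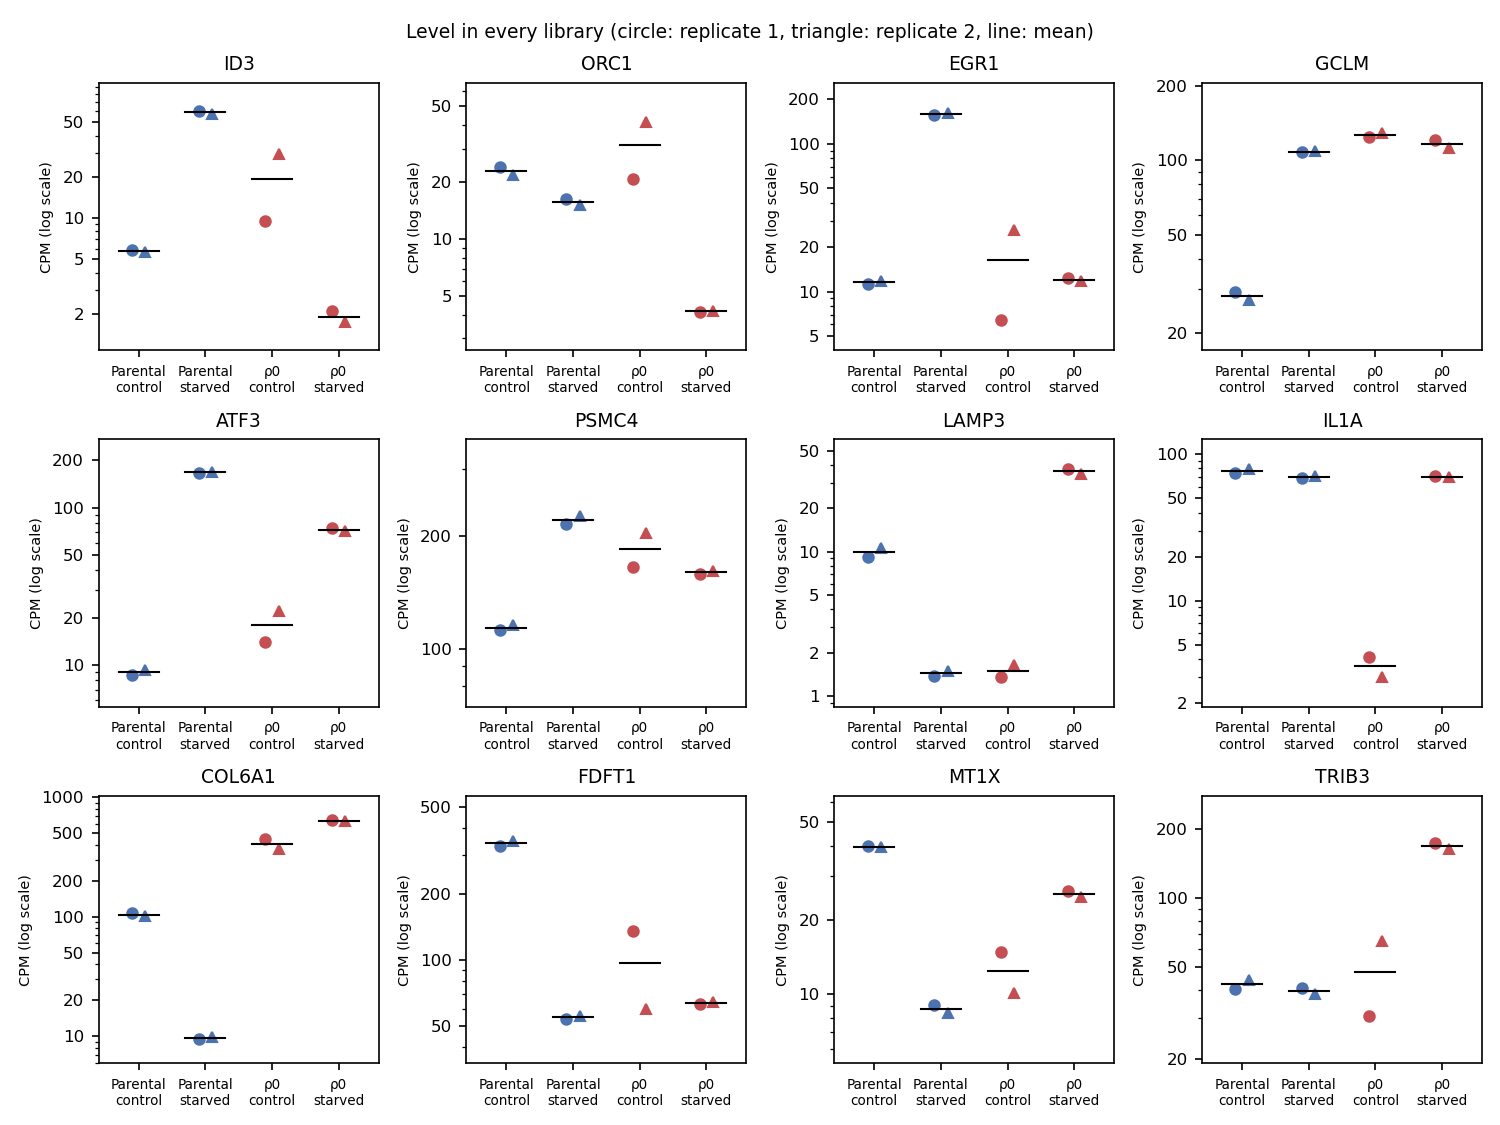
Level of 12 named genes in every library, in CPM on a log axis, with circles for replicate 1, triangles for replicate 2 and a line at the mean of each group, parental in blue and ρ0 in red. ID3 rose in parental and fell in ρ0 libraries, LAMP3, COL6A1 and MT1X did the reverse, and the ρ0 controls of ID3, ORC1, EGR1, FDFT1 and TRIB3 lie visibly apart.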

How the data were processed

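RNA-seq was performed by the authors on 8 libraries, 2 from each of 4 groups, and per the labels the reads were handled with Bowtie and Partek on hg19, without versions. The authors deposited 1 table of unnormalised counts, with a gene symbol per line. Whether reads were counted by strand is not given in the sources used here, so overlapping and antisense genes cannot be told apart.

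Counts were scaled by TMM and filtered by expected expression in edgeR 4.0.16 (R 4.3.3), which kept 15262 of 23393 genes, or 65.2%. A quasi-likelihood model with 1 mean per group was fitted to all 8 libraries, with 4 residual degrees of freedom and a common biological coefficient of variation of 12.4%. Interaction and line responses were called at a Benjamini-Hochberg adjusted p-value under 0.05 over all tested genes, and standard errors were taken as the fold change over the square root of F. On simulated counts for this comparison and 15262 genes, 56% of 100 differences of 1 log2 unit and 97% of 100 of 2 log2 units were recovered, and 8 other genes were called.

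The members and the 46 lists (1282 genes, 1218 tested) were chosen with earlier results of these data known, so no list is independent evidence of its direction. Named genes were the 6 with the largest difference in each direction and the 5 largest opposite responders in each direction (mean of 10 CPM or more, same sign for every choice of 1 library per group), up to 2 per list and direction (mean of 5 CPM or more), and 9 genes of the study's questions. Alternatives were other scalings, filters, DESeq2 1.42.0, limma-voom (limma 3.58.1), a replicate block, stricter thresholds and leaving out each library. Promoter windows were RefSeq's on GRCh38.p14, of which no coordinate was joined to the hg19 counts. Motif letters were also searched for NRF2 genes (TGACNNNGC, in 4 of 17 windows, 23.5%, against 13.3% of all) and cholesterol genes (TCACNCCAC, in 1 of 18, 5.56%, against 1.13%). Counting intervals and floors of 3 counts per library cover counting error alone. Results of 2 genes are not reported here.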

Additional observations from a re-analysis of the deposited data

Results flagged for a closer look

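The response to arginine depletion differed between the lines by the interaction test for each of the genes listed here, which are among the most extreme differences and the opposite responders chosen by the fixed rule. Above 0, the difference in log2 units was 8.79 for APOL3, 7.68 for CST1, 7.36 for LAMP3, 7.02 for XAF1, 6.42 for CST4, 6.29 for NFATC4, 3.54 for IL1B and 3.35 for CXCL2. The fitted values of APOL3, CST1, XAF1, CST4 and NFATC4 depend on the prior count, because 1 group had few or no counts. Below 0, it was −6.69 for ID3, −4.50 for UCA1, −4.21 for EGR1, −3.97 for HAS2, −3.86 for RELN, −3.85 for SLAMF7, −3.67 for ADGRV1, −3.02 for CCNE2 and −2.72 for C4orf19. UCA1 had only 2 and 4 counts in the parental controls, and RELN 2 and 18 in the ρ0 controls and 1 and 4 in starved ρ0 cells, so their values are uncertain too. The calls of XAF1, NFATC4 and RELN were each lost without at least 1 library, with adjusted p-values from edgeR of up to 0.104, 0.0979 and 0.316. Groups held 2 libraries, too few to test for an outlying sample.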

How the results depend on the processing

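The 6167 calls (3295 above 0, 2872 below 0, 555 opposite) stayed within 1.5 times under every other scaling, filter and test: 5701 to 6308 in all and 408 to 572 opposite. At an adjusted p under 0.01, 3249 genes passed, 1862 above and 1387 below 0, with 196 opposite, and with a difference beyond 1 log2 unit, 3037 passed, 2026 above and 1011 below. Without 1 library, 3513 to 10277 genes passed, 1961 to 5331 above and 1473 to 4946 below, with 195 to 2349 opposite. The highest counts came without ρ0 control replicate 1 (10277) and replicate 2 (9269), and the 6 other fits gave at most 3952. Libraries with the same replicate number showed no shared shift between groups (correlations of same-numbered deviations from −0.053 to 0.0386). This cannot tell whether they were handled together. With the replicate block 5731 genes passed, 479 of them opposite. Upper quartile and total count scaling shifted the median difference of all genes from 0.02 to 0.12 and 0.10 and the share of calls above 0 from 53.4% to 62.0% and 61.5%. The difference of NDUFB6, which was not called, changed sign under these scalings (0.036 and 0.027) and without ρ0 control replicate 1 (0.0895), and was −0.221 without replicate 2.

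Of 177 called genes named in the text, 115 kept their call under each of 17 alternatives and 62 lost it without at least 1 library, 31 of them without any one of the 6 libraries that are not ρ0 controls. No called gene changed sign. Of the list medians, 693 values moved by less than the spread between replicates and 89 by more. For each list this spread was the standard deviation of the 2 medians by replicate number, which includes the gap between the ρ0 controls. It was 1.03 for interferon-stimulated genes but 0.0057 for cytosolic heat shock genes, so these counts do not measure how stable the medians are. The 2 libraries per group, and the spread of 25.1% between the ρ0 controls, limit small differences most. In simulated counts 56% of differences of 1 log2 unit were recovered. These counts had the same spread in every group, so they do not show the effect of the gap between the ρ0 controls.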
